A study of Rattus norvegicus with 9 samples.

Results

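Cultured rat horizontal basal cells were compared after 12 h and after 6 h in phorbol 12-myristate 13-acetate (PMA), using 3 libraries at each time, which are 6 of the 9 libraries of the series. The cells came from olfactory epithelium of strain SD, grown as a primary culture and taken at passage 7. Both groups received PMA at 50 nM and differed only in the labelled time. The other 3 libraries, labelled vehicle (0.1% DMSO) and time 0, entered the model and are quoted only for reference. The material was thus a passaged culture and not the whole tissue. No vehicle library carries the label 6 h or 12 h, so longer exposure to PMA and longer time in culture cannot be told apart. Whether the replicates are separate cultures or animals is not stated in the labels. The p-values therefore reflect variation among these libraries alone, which may be technical. All genes of the count tables were considered, 17315 in number, of which 10128 passed the filter on low counts.

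Horizontal basal cells are reserve stem cells of the olfactory lining. They lie flat on the basal lamina, held by hemidesmosomes and keratin filaments, and divide little until injury activates them, while the transcription factor p63 holds them at rest. PMA mimics diacylglycerol and activates protein kinase C (PKC), which feeds the Ras, Raf, MEK and ERK cascade and NF-kB. ERK induces immediate early genes, among them the Fos and Jun subunits of the dimeric factor AP-1, and also the phosphatases and adaptors that later switch ERK off.

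Libraries held 15489394 to 19001819 reads in genes at 6 h and 13601635 to 16912465 at 12 h, 67.8% to 70.8% of all reads. PMA 12 h replicate 3 mapped differently from the other PMA libraries, with 3.88% of its reads unmapped against 5.11% to 7.61%, and 7.74% mapped to several places against 6.08% to 6.25%. On the first principal component, with 75.1% of the variance, the 6 h and 12 h libraries lay together and apart from vehicle, and the second, with 14.5%, split 6 h from 12 h. Levels are in CPM, a gene's reads scaled to the depth of its library. In such bulk samples fewer cells of a type and less RNA per cell cannot be told apart. Log2 fold changes are 12 h over 6 h with their standard error, and adjusted p-values come from the quasi-likelihood test of edgeR, adjusted by Benjamini-Hochberg over all 10128 genes. The words rose and fell are used for an adjusted p under 0.05. They compare 12 h with 6 h and say nothing of the vehicle level.

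Between 6 h and 12 h, 5175 of the 10128 genes changed (51.1%), 2561 upward (25.3% of those tested) and 2614 downward (25.8%). Most moved little: 616 rose at least 2-fold (6.08%) and 551 fell at least 2-fold (5.44%), and the median absolute change was 0.63 among called genes. Over all tested genes the median absolute change was 0.40, while the same measure for 6 h against vehicle was 0.81. These 2 comparisons share the 6 h libraries, so their values are set side by side below for single genes and nothing is read from how they relate. The 3 libraries of one time all lay beyond the 3 of the other in 96.1% of the called genes and in 58.0% of all tested genes. With a background this high, counts of list members are read against these shares, and the median over all tested genes, 0.01, is the reference for list medians.

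**Figure D1:**
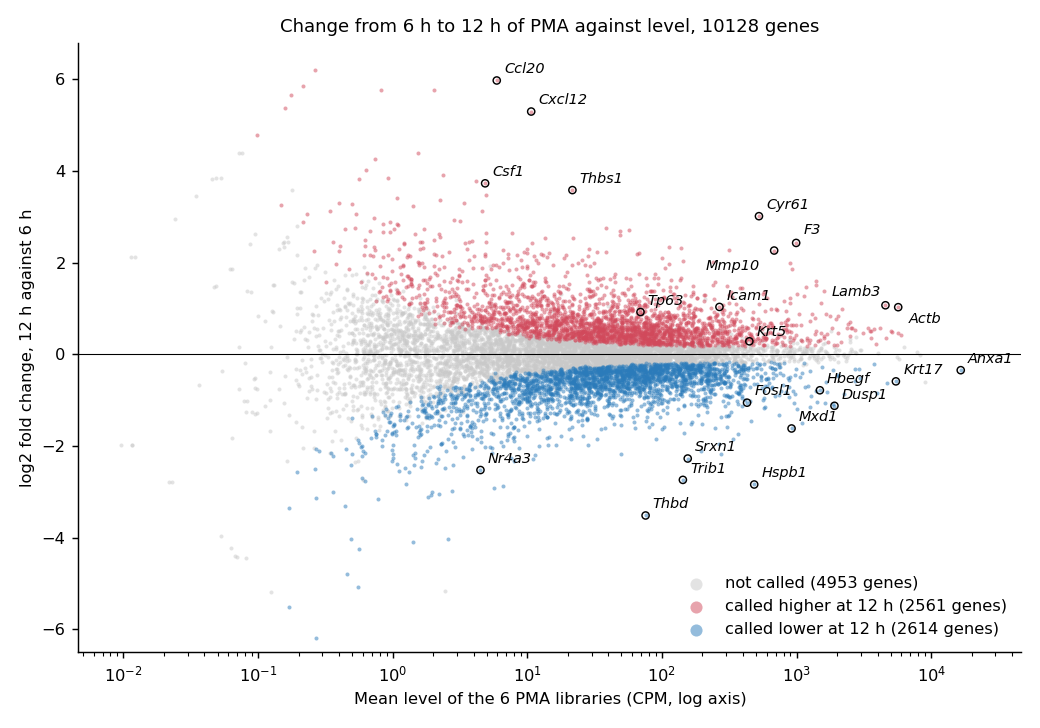
Each point is 1 of 10128 genes, with its mean level over the 6 PMA libraries (CPM, log axis) against its log2 fold change from 6 h to 12 h. Red points rose (2561), blue points fell (2614) and grey points were not called, and the circled genes are described in the text, from Ccl20 (5.98) at the top to Thbd (-3.52) at the bottom.

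Among genes reaching 5 CPM, the steepest rises were in Ccl20 and Cxcl12, both chemokines. Ccl20, a chemokine that attracts cells bearing CCR6, stood at 0.0692, 0.514 and 0 CPM at 6 h and 10.8, 14.5 and 9.80 CPM at 12 h, from 8 reads in all at 6 h to 470 at 12 h. Its log2 fold change was 5.98 ± 0.54 (adjusted p = 2.2e-07), or 8.23 without PMA 6 h replicate 2, the library that held most of the 6 h reads. Cxcl12, the ligand of CXCR4, stood at 0.346, 0.294 and 0.867 CPM at 6 h and 19.3, 23.1 and 20.2 CPM at 12 h, with no overlap between the times (5.30 ± 0.39, adjusted p = 2.6e-08; 6.00 without PMA 6 h replicate 3). Thbs1, the matrix glycoprotein thrombospondin, stood at 2.77, 4.41 and 2.89 CPM at 6 h and 41.8, 37.9 and 39.97 CPM at 12 h and again did not overlap (3.58 ± 0.42, adjusted p = 2.2e-04). Vegfc, a growth factor of lymphatic vessels, rose from 0.729 to 5.59 CPM (2.90 ± 0.34), and Lgals9, the lectin galectin-9, from 0.820 to 9.09 CPM (3.47 ± 0.29). The lipid-binding adaptor Plekhf1 (3.29) and the actin-linked proteins Flnc (3.13) and Fhl2 (2.75) rose too. Dnajb3 (2.93) lies inside the Ugt1a gene cluster, and reads there are hard to assign. Vehicle means of Thbs1, Vegfc, Lgals9, Plekhf1 and Fhl2 were 51.1, 5.12, 10.4, 11.7 and 65.8 CPM, each above the 6 h mean. Those of Ccl20, Cxcl12, Flnc and Dnajb3 were 0.214, 0.922, 0.465 and 0.222 CPM, each far under the 12 h mean.

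Among genes reaching 5 CPM, Thbd had the steepest fall. Thbd, the thrombin receptor thrombomodulin, stood at 133, 148 and 137 CPM at 6 h and 13.2, 10.5 and 12.7 CPM at 12 h, with no overlap (-3.52 ± 0.11, adjusted p = 6.3e-13). Trib1, a pseudokinase that steers protein degradation, stood at 252, 275 and 219.9 CPM at 6 h and 39.2, 30.3 and 42.3 CPM at 12 h (-2.74 ± 0.12, adjusted p = 1.5e-10), and the lowest 6 h library was again above the highest at 12 h. Lppr3, a membrane phosphatase-related protein, fell from 11.6 to 1.56 CPM (-2.87 ± 0.32) and the uric acid enzyme Xdh from 13.4 to 2.63 CPM (-2.33 ± 0.22). Smc2, a condensin subunit, fell as well (-2.29 ± 0.36), and so did Ugt1a6 (-2.20 ± 0.17), whose exons are partly common to the Ugt1a cluster, and Grin3b (-2.26 ± 0.41), which overlaps Tmem259. The row Mir22 fell from 10.1 to 1.32 CPM (-2.92 ± 0.26); it counts longer RNA over the hairpin and not the mature miRNA. Against vehicle at 6 h, the same fit gave 2.63 ± 0.10 for Thbd and 5.67 ± 0.15 for Trib1, and for both the 6 h mean was the highest of the 3 groups.

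Promoters of some changed genes hold letters known as binding sites of AP-1 or E2F. As examples, 4 promoters that hold such letters are shown, from genes with large changes in either direction. They come from RefSeq (build GRCr8), not from the build of the counts, and run 5′ to 3′ on the gene's strand. The first 3 span 120 bases up to the base before the annotated start, and capitals mark the AP-1 site TGANTCA.
Mmp10 (chr8:12974587-12974706, plus strand): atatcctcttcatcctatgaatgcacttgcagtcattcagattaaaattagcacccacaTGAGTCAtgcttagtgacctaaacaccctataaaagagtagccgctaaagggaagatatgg
Lgals9 (chr10:64428071-64428190, minus strand): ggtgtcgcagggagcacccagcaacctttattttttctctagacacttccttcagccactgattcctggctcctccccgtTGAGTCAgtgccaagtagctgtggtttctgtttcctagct
Srxn1 (chr3:161064692-161064811, plus strand): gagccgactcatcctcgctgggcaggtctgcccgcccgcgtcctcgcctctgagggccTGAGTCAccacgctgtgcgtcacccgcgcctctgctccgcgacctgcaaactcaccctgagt
Mcm7 (chr12:22163309-22163428, minus strand): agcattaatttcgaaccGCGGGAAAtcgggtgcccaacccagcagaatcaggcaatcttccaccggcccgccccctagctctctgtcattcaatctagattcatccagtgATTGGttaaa
In the first 3, the site begins at -61 (Mmp10), -40 (Lgals9) and -62 (Srxn1), although Mmp10 and Lgals9 rose and Srxn1 fell. In the fourth, from -250 to -131 of the replication helicase gene Mcm7, which fell, capitals mark overlapping E2F matches (TTCCCGC or TTTCCCG) at -233 and -232 and a CCAAT box at -140. A promoter was found for 143 of the 200 largest called rises and 151 of the 200 largest called falls, and for 7767 of all 10128 tested genes. With both strands searched in the 300 bases around the start, TGANTCA was present in 9.09% of the rises, 8.61% of the falls and 5.1% of all. The E2F letters were in 8.39%, 11.9% and 11.8%, and the heat shock element TTCNNGAA in 4.9%, 9.93% and 6.82%. A match describes letters in the window and not a bound site.

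Basal cell genes moved partly upward. Of 18 tested members of the basal identity list, among 19 entries, 9 rose and 2 fell, with a median of 0.39. Tp63, the gene of p63, stood at 48.9, 50.5 and 44.3 CPM at 6 h and 96.1, 88.7 and 87.3 CPM at 12 h, all 12 h libraries above all 6 h libraries (0.92 ± 0.09, adjusted p = 4.1e-07). It remained below its vehicle mean of 219 CPM. Icam1, an adhesion molecule used to sort horizontal basal cells, stood at 179, 193 and 156 CPM at 6 h and 344, 405 and 328 CPM at 12 h, again without overlap (1.03 ± 0.10, adjusted p = 1.9e-07). Krt14, a basal keratin, stood at 845, 809 and 682 CPM at 6 h and 893, 1059 and 1089 CPM at 12 h, a small rise (0.38 ± 0.09, adjusted p = 0.0026). Its partner Krt5 overlapped between the times, at 423, 440.4 and 344 CPM at 6 h and 416, 593 and 459 CPM at 12 h, and did not pass (0.28 ± 0.14, adjusted p = 0.11); it passed without PMA 12 h replicate 1 (0.39) and with a replicate block (0.27). Sox2, a progenitor factor, was near the limit of detection (0.553, 1.25 and 0.347 CPM at 6 h and 1.63, 1.53 and 1.21 CPM at 12 h) and did not pass (1.07 ± 0.46, adjusted p = 0.063; 1.71 without PMA 6 h replicate 2), although it passed without that library and with the stricter filter. Of the basal keratins that fell, Krt15 stood at 25.04, 19.02 and 16.5 CPM at 6 h and 8.23, 7.12 and 8.06 CPM at 12 h (-1.37 ± 0.16, adjusted p = 1.9e-06). The wound keratin Krt17 stood at 6674, 6907 and 6139 CPM at 6 h and 4046, 4446 and 4596 CPM at 12 h (-0.59 ± 0.08, adjusted p = 1.2e-05), and neither overlapped.

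Genes that attach the cell to its basement membrane mostly rose. Of 10 tested members of the hemidesmosome and basement membrane list, among 17 entries, 7 rose and 1 fell, with a median of 0.67. Lamb3, a chain of the laminin that the hemidesmosomal integrin binds, stood at 2976, 3231 and 2648 CPM at 6 h and 5819.9, 6189.7 and 6573 CPM at 12 h, with every 12 h library above every 6 h library (1.07 ± 0.13, adjusted p = 2.4e-05). The integrin subunits Itga6 (0.68) and Itgb4 (0.65), the linker Plec (0.67) and the matrix linker Nid2 (1.39) rose. The tetraspanin Cd151 was also higher (0.73), but it did not pass without vehicle replicate 2, without any 6 h library, without PMA 12 h replicate 1 or 2 (0.48 without the latter), without normalization, with a replicate block or with DESeq2. Col7a1, the anchoring fibril collagen, was lower (-0.58 ± 0.21), a call lost without PMA 6 h replicate 2 (-0.42) or without 12 h replicate 1 or 2. Collagen XVII, Col17a1, had 443 ± 96.8 CPM at 6 h and 519 ± 27.9 CPM at 12 h and did not pass (0.23 ± 0.29). On the surface, Pdpn (podoplanin, 0.93 ± 0.07) and Egfr, the EGF receptor (0.88 ± 0.09), both rose.

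**Figure D2:**
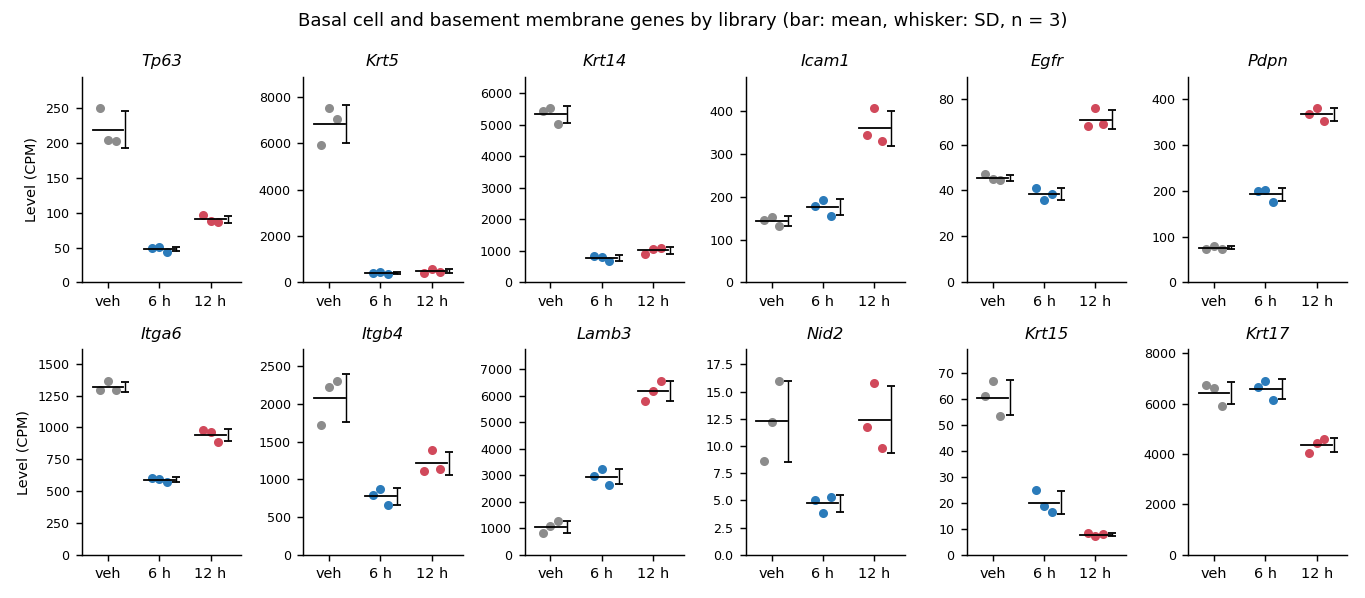
Levels in CPM of 12 basal cell and basement membrane genes in each library, with the group mean as a bar and the SD as a whisker (n = 3). Tp63 rose from 47.9 to 90.7 CPM and stayed under vehicle, Lamb3 at 12 h lay above both other groups, and Krt15 and Krt17 fell.

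More ERK feedback genes fell than rose, and immediate early factors moved both ways. Of 20 tested members of the ERK feedback list, among 24 entries, 10 fell and 3 rose (median -0.42). Dusp1, a phosphatase that inactivates MAP kinases, stood at 2656, 2648 and 2559.9 CPM at 6 h and 1230.0, 1136 and 1241 CPM at 12 h (-1.12 ± 0.08, adjusted p = 5.3e-09). The ERK phosphatase Dusp6 stood at 457, 432 and 402 CPM at 6 h and 168, 162 and 175 CPM at 12 h (-1.36 ± 0.07, adjusted p = 3.5e-10). In both the times did not overlap, and Dusp6 at 12 h was close to its vehicle mean of 169 CPM, whereas Dusp1 was above its vehicle mean of 165 CPM. Dusp5, a nuclear ERK phosphatase (-1.07), Spry2, a Sprouty inhibitor of receptor signalling (-1.11), Phlda1 (-1.08) and Errfi1, an inhibitor of the EGF receptor (-0.68), fell too. The exceptions were Spry1, another Sprouty gene, at 2.35, 2.79 and 2.95 CPM at 6 h and 9.53, 13.1 and 12.1 CPM at 12 h (2.10 ± 0.23, adjusted p = 8.9e-07), and the phosphatases Dusp8 (0.81) and Dusp7 (0.63). Against vehicle at 6 h, Dusp1 was at 3.99 ± 0.09, Dusp6 at 1.35 ± 0.07, Spry2 at 4.66 ± 0.11 and Spry1 at 0.36 ± 0.24.

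Of 30 tested AP-1 and immediate early factors, among 31 entries, 12 rose and 9 fell (median -0.07). Among Fos family members, Fosl1 stood at 607, 555 and 575 CPM at 6 h and 272, 282 and 282 CPM at 12 h (-1.06 ± 0.08, adjusted p = 2.9e-08). Fosb fell from 44.6 to 11.4 CPM (-1.97), Fos from 31.3 to 18.1 CPM (-0.79) and Fosl2 from 34.3 to 17.7 CPM (-0.95). Among Jun family members, Jun stood at 213, 217 and 174 CPM at 6 h and 341, 396 and 376 CPM at 12 h (0.88 ± 0.09, adjusted p = 3.4e-07) and Jund rose from 397 to 759.7 CPM (0.94). Junb was lower, from 3032 to 2424 CPM (-0.32), a call lost on leaving out replicate 1 of either time or 6 h replicate 2 (-0.28 without PMA 12 h replicate 1). All 4 tested Fos genes therefore fell, and 2 of the 3 Jun genes rose. The orphan receptors Nr4a3, at 8.37, 6.02 and 8.50 CPM at 6 h and 0.953, 1.09 and 1.99 CPM at 12 h (-2.53 ± 0.39, adjusted p = 4.4e-05), and Nr4a1 (-1.39) fell. The zinc finger factors Egr1, at 337, 312 and 321 CPM at 6 h and 786, 820.5 and 799 CPM at 12 h (1.31 ± 0.08, adjusted p = 1.7e-09), and Egr2 (1.54) rose, as did Klf2 (1.57) and the AP-1 partner Batf3 (1.49). Myc, a transcription factor of cell growth, stood at 318, 314 and 301 CPM at 6 h and 473, 489 and 464 CPM at 12 h (0.61 ± 0.07, adjusted p = 1.6e-06). Myc antagonists went both ways, with Mxd1 (-1.62 ± 0.13), Mxi1 (-0.91) and Mnt (-0.69) lower. Mxd4, of the same family as Mxd1, rose from 9.18 to 15.04 CPM (0.72 ± 0.18). Mxd1 stood at 1338, 1334 and 1483 CPM at 6 h and 502, 363 and 487 CPM at 12 h, without overlap.

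The EGF family moved in both directions. Of 11 tested members, among 18 entries, 4 rose and 6 fell (median -0.35). Of the ligands, Hbegf stood at 1846, 1985 and 1826 CPM at 6 h and 1101, 1082 and 1098 CPM at 12 h (-0.79 ± 0.07, adjusted p = 1.1e-07) and Epgn fell from 4.77 to 0.875 CPM (-2.41). Areg (0.92), Nrg1 (0.74) and Ereg (0.73; not passing without PMA 12 h replicate 1, 0.50) rose. Of the receptors, Erbb3, at 149, 149 and 149 CPM at 6 h and 72.4, 57.01 and 72.7 CPM at 12 h (-1.15 ± 0.11, adjusted p = 2.0e-07), and Erbb2 (-0.80) fell, and Egfr rose (0.88), with no overlap for Erbb3. Adam17, which sheds several of these ligands, fell (-0.89). Among 15 tested PKC and protein kinase D genes of 19 entries, 7 rose and 3 fell. Prkd3 (1.06 ± 0.11), the PKC substrate Marcks (0.93 ± 0.09) and the PMA-binding isoform gene Prkca (0.62 ± 0.08) rose, and Prkcd, another PMA-binding isoform, fell from 502 to 347 CPM (-0.54 ± 0.07).

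**Figure D3:**
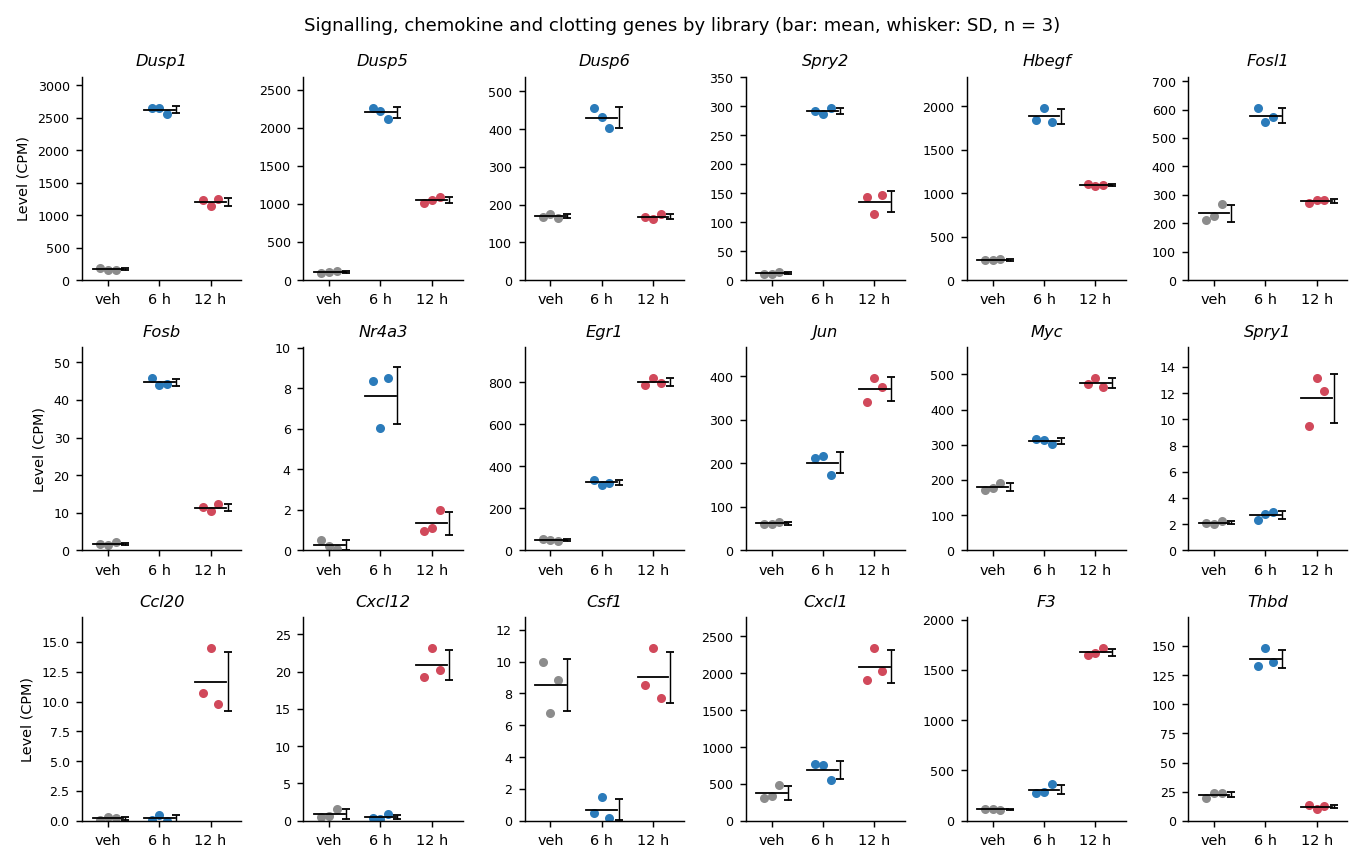
Levels in CPM of 18 signalling, chemokine and clotting genes in each library, with the group mean as a bar and the SD as a whisker (n = 3). Dusp1, Spry2, Hbegf, Fosb and Thbd were highest at 6 h, and Egr1, Jun, Spry1, Ccl20, Cxcl12 and F3 were highest at 12 h.

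Inflammatory genes were mixed, with several chemokines and growth factors rising late. Of 27 tested chemokines and cytokines, among 33 entries, 13 rose and 6 fell (median 0.38). Cxcl1, which recruits neutrophils, stood at 769, 762 and 551 CPM at 6 h and 1904, 2337 and 2032 CPM at 12 h (1.59 ± 0.20, adjusted p = 1.8e-04), and Csf2, the gene of GM-CSF, rose from 66.9 to 205 CPM (1.62 ± 0.22). Csf1, the macrophage growth factor, stood at 0.484, 1.47 and 0.173 CPM at 6 h and 8.51, 10.8 and 7.72 CPM at 12 h (3.73 ± 0.42, adjusted p = 4.1e-06; 4.80 without PMA 6 h replicate 2). The monocyte chemokine Ccl2 stood at 0.830, 0.588 and 0.289 CPM at 6 h and 3.61, 14.4 and 5.20 CPM at 12 h (3.78 ± 0.71, adjusted p = 0.0019; 2.96 without PMA 12 h replicate 2). Both were near their vehicle means of 8.53 and 6.57 CPM at 12 h and far under them at 6 h. The alarmin receptor Il1rl1 (1.45) and its ligand Il33 (1.63) rose. The monocyte chemokine Ccl7 (-2.37; -3.33 without PMA 12 h replicate 2), the CXCL12 scavenger receptor Ackr3 (-1.79 ± 0.14, from 27.7 to 7.99 CPM) and the cytokine Clcf1 (-1.25) fell.

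In the NF-kB list, 5 of 16 tested members rose and 5 fell, among 21 entries (median -0.04). Subunit genes were among those that fell, with Nfkb1 at 274, 266 and 219 CPM at 6 h and 113, 124 and 112 CPM at 12 h (-1.12 ± 0.10, adjusted p = 1.5e-07) and Rela falling from 274 to 163 CPM (-0.75), as did the coactivator Bcl3 (-1.23) and the adaptor kinase Ripk2 (-1.03). Inhibitors rose: Nfkbia, the gene of IkB-alpha, from 1283 to 1764 CPM (0.46 ± 0.10), and the deubiquitinase Cyld (0.82) and Tnip1 (0.72). For Nfkb1 no 12 h library reached the lowest 6 h library. Of 22 tested interferon response genes, among 28 entries, 9 rose and 5 fell. The transcription factor Irf1 stood at 45.8, 41.1 and 40.4 CPM at 6 h and 139, 127 and 134 CPM at 12 h (1.66 ± 0.08, adjusted p = 2.1e-10). Among the others were Ifit2 at under 1 CPM (3.28) and the RNA sensor Ddx58 (1.93) upward, and the GTPases Mx2 (-2.25) and Gbp2 (-1.97) downward.

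Several matrix proteases rose and clotting regulators diverged. Of 22 tested members of the matrix protease and plasminogen list, among 25 entries, 10 rose and 3 fell (median 0.51), or 6 rose without PMA 6 h replicate 3 and 5 fell without normalization. Mmp10, the stromelysin whose promoter is shown above, stood at 262, 239 and 204 CPM at 6 h and 1078, 1228 and 1079 CPM at 12 h (2.26 ± 0.55, adjusted p = 0.013). In vehicle it stood at 9.97, 28.6 and 61.3 CPM, a spread that enters this standard error. The elastase Mmp12 (1.95 ± 0.42) and the inhibitor Timp2 (1.17 ± 0.10) rose as well, as did the collagenase Mmp13 (1.23 ± 0.31; not passing without PMA 6 h replicate 3, 1.22). Mmp1 was higher at a low level (2.29; 2.92 without PMA 6 h replicate 2). Mmp14, the membrane protease that activates others, fell (-0.41 ± 0.08). Serpinb2, an inhibitor of plasminogen activators, rose (0.35 ± 0.10). F3, tissue factor, which starts clotting and is also listed as a YAP target, stood at 281, 285 and 366 CPM at 6 h and 1646, 1667 and 1713 CPM at 12 h (2.43 ± 0.10, adjusted p = 1.8e-11). Thus F3 rose and the clotting brake Thbd fell, neither with overlap.

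Targets of YAP and TEAD rose: 8 of 13 tested members, among 17 entries, with 3 lower (median 0.49). Cyr61 and Ctgf, secreted matricellular proteins and standard readouts of YAP, led them. Cyr61 stood at 128, 118 and 101 CPM at 6 h and 874, 1034 and 898 CPM at 12 h (3.01 ± 0.09, adjusted p = 6.3e-13). Ctgf stood at 11.2, 13.4 and 10.1 CPM at 6 h and 49.7, 56.3 and 57.1 CPM at 12 h (2.23 ± 0.18, adjusted p = 5.9e-08). Neither overlapped. Tead1, the DNA-binding partner, rose from 36.3 to 115 CPM (1.66 ± 0.10), while Yap1 itself fell from 217 to 168 CPM (-0.36 ± 0.09). Wwtr1, the gene of the paralog TAZ, was lower (-0.27 ± 0.10), a call lost without PMA 12 h replicate 2 (-0.14) or 6 h replicates 2 and 3, each in turn.

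Lists of secreted developmental signals differed in their counts. Of 23 tested Wnt pathway genes, among 36 entries, 10 rose and 2 fell (median 0.43). The ligands Wnt7a, at 6.30, 8.37 and 4.68 CPM at 6 h and 24.8, 20.2 and 28.8 CPM at 12 h (1.94 ± 0.20, adjusted p = 4.4e-07), Wnt9a (1.79) and Wnt4 (0.98) rose. At a low level Wnt3a rose too (3.36; 4.01 without PMA 6 h replicate 3), as did Rnf43 (2.43 ± 0.18), which removes Wnt receptors, and the coreceptor Lrp5 (1.21). Vehicle means were 17.6 CPM for Wnt7a, 15.2 CPM for Wnt3a and 15.7 CPM for Rnf43, each above the 6 h mean. Ctnnb1, beta-catenin, fell from 3249 to 2177 CPM (-0.58 ± 0.08). Among 20 TGF-beta and activin genes, 5 rose and 5 fell, 25.0% each and close to the 25.3% and 25.8% of all tested genes. In that list Tgfb2 (1.65 ± 0.11), Inhba (1.85 ± 0.28) and the receptor Tgfbr2 (1.07 ± 0.09) were higher and Tgfb1 (-0.48 ± 0.13) lower. Among 15 BMP and Id genes, 4 rose and 4 fell, 26.7% each and again close to those shares. The ligand Bmp2 stood at 11.97, 14.03 and 14.7 CPM at 6 h and 71.7, 56.2 and 62.6 CPM at 12 h (2.22 ± 0.15, adjusted p = 3.3e-09), and the receptor Bmpr1b (1.90 ± 0.31) rose, while the Id inhibitors Id1 (-1.23 ± 0.17) and Id2 (-1.30 ± 0.23) fell. Among 13 Notch genes, 5 rose and 5 fell, with the ligand Dll1 (1.69 ± 0.17) and the target Hes1 (0.58 ± 0.08) higher and the feedback gene Nrarp (-1.63 ± 0.13) and the receptor Notch3 (-1.20 ± 0.11) lower. Mfng, a Fringe enzyme that modifies Notch, had the largest drop of the list (-2.03 ± 0.74) at under 1 CPM, a call lost with DESeq2, with no low-count filter and on leaving out replicate 1 of either time, 6 h replicate 2 or 12 h replicate 3. The Fringe genes Rfng (0.97 ± 0.13, from 11.3 to 22.1 CPM) and Lfng (0.87 ± 0.34) were higher instead. Lfng lost its call in 7 of the 17 alternatives.

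Junction genes and envelope genes moved apart. Of 24 tested tight junction and epithelial adhesion genes, among 27 entries, 14 fell and 2 rose (median -0.38). Grhl3 and Ovol1 encode transcription factors of the epithelial barrier. Grhl3 stood at 563, 613 and 509 CPM at 6 h and 182, 165 and 157 CPM at 12 h (-1.74 ± 0.09, adjusted p = 1.5e-10). Ovol1 stood at 454, 489.6 and 419.7 CPM at 6 h and 169, 129.8 and 153 CPM at 12 h (-1.59 ± 0.10, adjusted p = 1.7e-09). Neither overlapped between the times, and both remained above their vehicle means of 13.2 and 6.74 CPM. The strand proteins Cldn1 (-1.09 ± 0.16) and Ocln (-0.87 ± 0.11) and the adherens cadherin Cdh1 (-0.53 ± 0.09) fell. Cldn4, another claudin, did not pass (-0.10 ± 0.10), although it was lower without PMA 6 h replicate 3 (-0.22). Of the 2 that rose, Ovol2 (0.97 ± 0.14) passed throughout, and Grhl2 (0.22 ± 0.09) kept its call in only 3 of the 17 alternatives, the stricter filter and the omission of replicate 2 of either time (0.19 without PMA 12 h replicate 1).

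Of 21 tested desmosome and squamous envelope genes, among 28 entries, 13 rose and 2 fell (median 0.32). Cnfn, cornifelin, stood at 44.1, 48.5 and 45.3 CPM at 6 h and 204, 112 and 224 CPM at 12 h (1.97 ± 0.25, adjusted p = 3.1e-04). Sprr1a, a small proline-rich envelope protein, stood at 556, 603 and 719.7 CPM at 6 h and 1784, 1592 and 1834 CPM at 12 h (1.47 ± 0.16, adjusted p = 3.0e-05). In each the 12 h libraries all lay higher. Sbsn (2.10 ± 0.26), Sprr3 (2.66 ± 0.44) and Ivl, involucrin (1.23 ± 0.19), rose too. The desmosomal cadherin Dsg3 fell (-0.47 ± 0.09). The mucosal keratin Krt4 was lower at a low level (-1.28 ± 0.48), a call lost with a replicate block or without PMA 6 h replicate 2 or 3 or any 12 h library (-1.38 without PMA 12 h replicate 2). Of 9 tested S100 genes, among 15 entries, 7 rose and 0 fell by edgeR, by DESeq2 and at an unadjusted p under 0.05 (median 0.89). S100a8 and S100a9 are the subunits of calprotectin. S100a8 stood at 419.9, 481 and 299 CPM at 6 h and 1472, 1296 and 1585 CPM at 12 h (1.86 ± 0.22, adjusted p = 2.2e-04), without overlap, and S100a9 rose from 96.9 to 233 CPM (1.27 ± 0.24). S100a1 (0.78) and S100a13 (-0.25; 0.05 without PMA 6 h replicate 1) did not pass. S100a6 rose from 729 to 2069.9 CPM (1.51 ± 0.16). Of the 6 tested mesenchymal transition factors, among 12 entries, 3 rose and 0 fell by edgeR, and the counts were the same by DESeq2 and at an unadjusted p under 0.05. Snai2 stood at 4.08, 2.72 and 2.31 CPM at 6 h and 11.8, 14.2 and 14.8 CPM at 12 h (2.17 ± 0.19, adjusted p = 7.9e-08), and Zeb1 (1.34 ± 0.37) and S100a4 (1.24 ± 0.22) rose with it. Vehicle means were 35.5 CPM for Snai2 and 14.4 CPM for S100a4, above their means at both times, and 0.938 CPM for Zeb1, below both. Twist1 (0.81), Snai1 (1.06) and Tcf4 (0.26) did not pass.

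**Figure D4:**
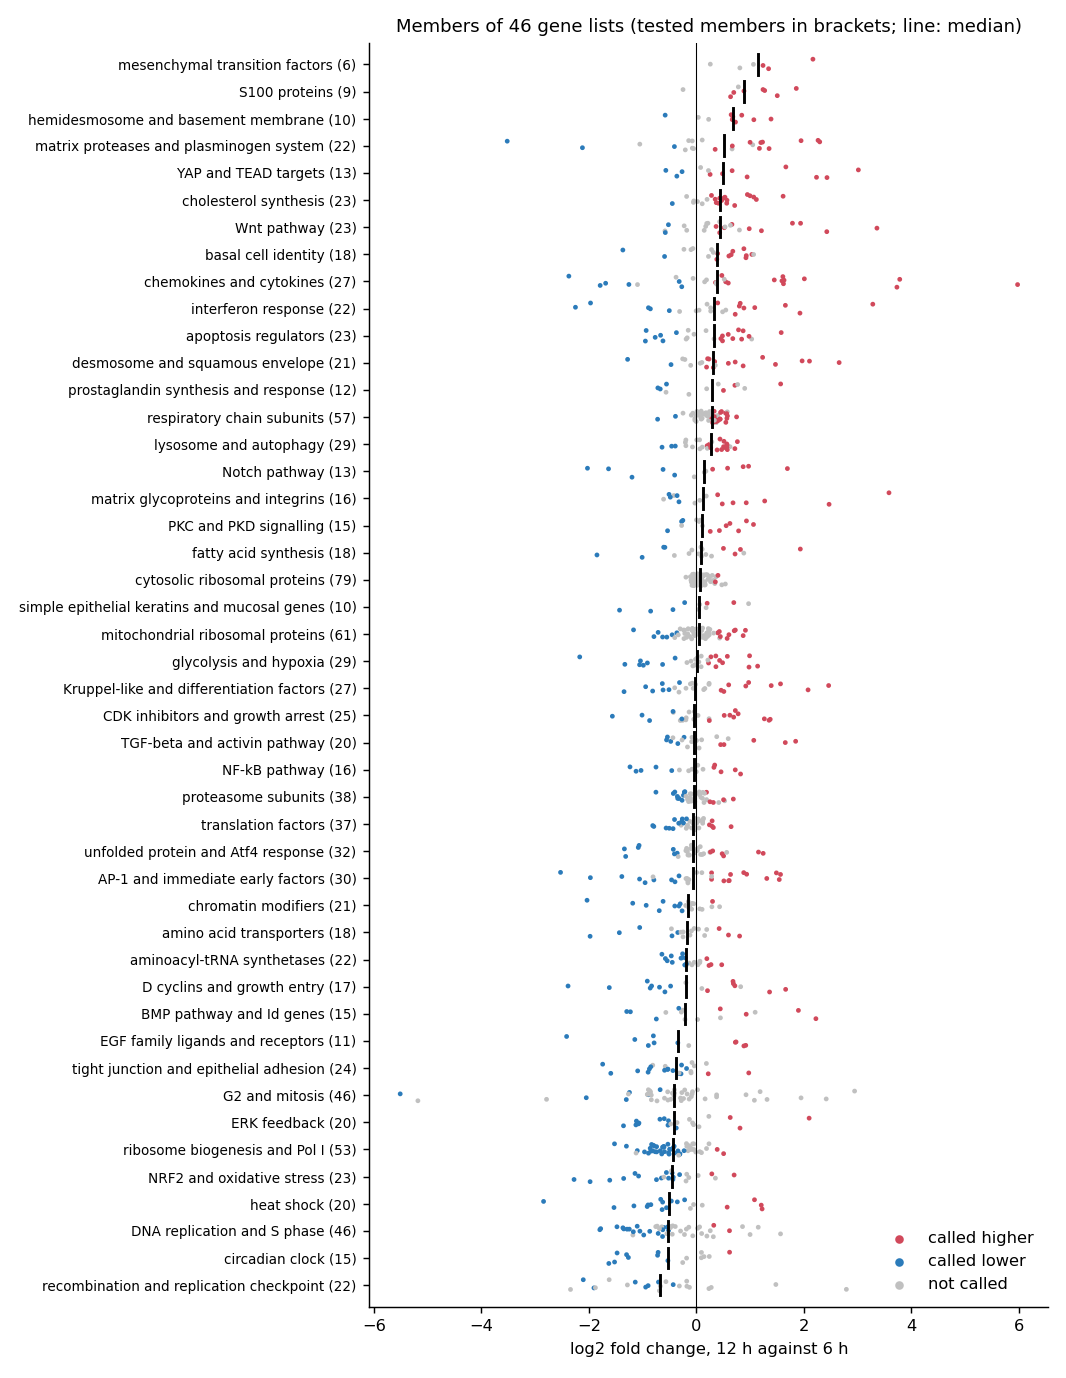
Each point is 1 tested member of the list named on the left, placed by its log2 fold change from 6 h to 12 h, red where it rose, blue where it fell and grey where it was not called; black lines are list medians. Medians ran from 1.15 (mesenchymal transition factors) to -0.68 (recombination and replication checkpoint).

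Many genes of DNA replication fell. Of 46 tested replication and S phase genes, among 49 entries, 18 fell and 2 rose (median -0.53). Pcna, the sliding clamp of DNA polymerase, stood at 94.4, 87.1 and 94.1 CPM at 6 h and 34.7, 33.2 and 31.04 CPM at 12 h (-1.48 ± 0.18, adjusted p = 5.6e-05). The helicase subunit Mcm7 stood at 24.6, 24.4 and 18.7 CPM at 6 h and 6.94, 6.54 and 5.90 CPM at 12 h (-1.80 ± 0.28, adjusted p = 6.3e-04). Both sets were apart, and for Mcm7 the 6 h value against vehicle was -2.13 ± 0.24. Fen1, the flap nuclease, fell (-1.29 ± 0.23), and Cdc6, which loads the helicase, rose (0.62 ± 0.18). Rpa1 was also higher (0.32 ± 0.12), a call lost without normalization (0.28) and on leaving out replicate 1 of either time or 6 h replicate 2. In the recombination and checkpoint list, 7 of 22 tested members fell and 0 rose by edgeR (median -0.68), or 4 fell without PMA 6 h replicate 3. No member rose at an unadjusted p under 0.05 either, and DESeq2 called 1 higher. Bard1, partner of BRCA1, fell from 10.1 to 2.69 CPM (-1.90 ± 0.25). Brca1 itself did not pass (-1.28 ± 0.53), but it did without vehicle replicate 1 or 3, with the PMA libraries alone, with DESeq2 and with a replicate block (adjusted p = 0.0013).

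By median, mitotic genes were already low at 6 h (-4.30 against vehicle), and they gave few calls. Summed over the list, vehicle libraries spread widely, at 1035.5, 1958.4 and 3399.3 CPM. The sums ran from 1011 to 1115 CPM at 6 h and from 874 to 1007 CPM at 12 h. The model estimates spread from all 9 libraries, so the vehicle spread enters these standard errors. Its part in the number of calls was not tested. Of 46 tested G2 and mitosis genes, among 49 entries, 6 fell and 0 rose by edgeR, with a median of -0.41. Some genes had no read in a group. The median was unaltered (-0.41) with 2 of them set to their bound and 2, at or under the floor at both times, left out. The count of falls was 3 without any 1 of the 12 h libraries, 12 or 11 without vehicle replicate 1 or 3, and 11 with the PMA libraries alone, and DESeq2 called 7 lower and 1 higher. Aurka, a spindle kinase, stood at 12.5, 16.01 and 13.2 CPM at 6 h and 3.81, 2.40 and 3.90 CPM at 12 h (-2.05 ± 0.43, adjusted p = 0.0041), without overlap. Cenpa, the centromeric histone, had 15 reads over the 6 h libraries and 0 at 12 h (at least 4.50-fold lower, taking 3 counts over the 12 h group as the floor), a call lost without PMA 6 h replicate 1 or any 12 h library. Among D cyclins and growth entry genes, 6 of 17 rose and 8 fell. Cdk6, a G1 kinase, stood at 45.5, 45.9 and 43.3 CPM at 6 h and 138, 157 and 130.2 CPM at 12 h (1.66 ± 0.10, adjusted p = 1.6e-09). Ccnd1 (0.68 ± 0.10) and the polyamine enzyme Odc1 (1.36 ± 0.17) rose, and the ubiquitin ligase subunit Skp2 fell at a low level (-2.39 ± 0.63; -5.29 without PMA 12 h replicate 1, the fit then resting on few reads). Among 25 growth arrest genes, 9 rose and 5 fell. Higher were Gadd45g (1.37 ± 0.17), Cdkn2a (1.35 ± 0.10), Cdkn2b (0.72 ± 0.09), Gadd45b (1.26 ± 0.09) and Cdkn1b (0.52 ± 0.13), and lower were E2f7 (-1.56 ± 0.40), Btg1 (-0.87 ± 0.08) and Ccng2 (-1.01 ± 0.09), while Cdkn1a, the gene of p21, did not pass (-0.14 ± 0.10).

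More NRF2 and heat shock genes fell than rose. Of 23 tested NRF2 and oxidative stress genes, among 24 entries, 14 fell and 2 rose (median -0.46). Srxn1, sulfiredoxin, stood at 268, 256 and 249 CPM at 6 h and 58.9, 44.8 and 56.01 CPM at 12 h (-2.28 ± 0.09, adjusted p = 1.8e-11). Gclc, the catalytic subunit for glutathione synthesis, stood at 96.4, 86.5 and 101 CPM at 6 h and 28.04, 36.02 and 28.8 CPM at 12 h (-1.61 ± 0.10, adjusted p = 2.3e-09). The cystine importer Slc7a11 (-1.98 ± 0.32), Nqo1 (-1.35 ± 0.28), Hmox1 (-1.07 ± 0.14) and Txnrd1 (-0.74 ± 0.07) also fell, while Nfe2l2, the gene of NRF2, rose from 129 to 210.0 CPM (0.70 ± 0.09). The other rise was Gstp1 (0.29 ± 0.09), lost without 1 library (0.22 without PMA 12 h replicate 3). Of 20 tested heat shock genes, among 21 entries, 13 fell and 4 rose (median -0.51). Hspb1, a small heat shock protein, stood at 901, 897 and 755 CPM at 6 h and 127, 118 and 110.4 CPM at 12 h (-2.84 ± 0.21, adjusted p = 7.2e-06). Another small heat shock protein, Hspb8 (-1.53 ± 0.22), the co-chaperone Hsph1 (-1.16 ± 0.10) and the chaperonin Hspd1 (-0.91 ± 0.07) fell. Opposite to these, Hspa1a (1.08 ± 0.10) and Hspa1b (1.22 ± 0.10), near-identical genes whose reads can be split or lost, and Hsf1, their transcription factor (0.57 ± 0.09), rose.

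Most clock genes that changed fell. Of 15 tested circadian genes, among 19 entries, 8 fell and 1 rose (median -0.53). Cry1, a repressor of the clock, stood at 64.6, 62.1 and 67.8 CPM at 6 h and 25.04, 21.1 and 21.5 CPM at 12 h (-1.52 ± 0.13, adjusted p = 5.5e-08). The repressors Per2 (-1.26), Per1 (-0.72), Cry2 (-0.71) and Ciart (-1.63) fell, with Tef (-1.30) and Bhlhe40 (-1.47). Per3 was lower too (-0.53), a call lost on leaving out replicate 3 of either time (-0.51 and -0.46). The activator Arntl (BMAL1) rose from 33.8 to 51.9 CPM (0.62 ± 0.11). Nr1d1 (REV-ERB alpha) had 260.0 ± 29.3 CPM at 6 h and 277 ± 12.7 CPM at 12 h and did not pass (0.09 ± 0.11).

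Metabolic lists divided. Of 23 tested cholesterol synthesis genes, among 24 entries, 16 rose and 1 fell (median 0.43). Insig1, which restrains sterol synthesis when sterol is ample, stood at 552, 544 and 601 CPM at 6 h and 1218, 1223 and 1238 CPM at 12 h (1.12 ± 0.10, adjusted p = 7.8e-08), with no overlap between the times; it shares its locus with LOC102546740, whose reads are not parted by strand. The cyclase Lss (1.00 ± 0.12), the reductase Dhcr7 (0.95 ± 0.12) and the synthase Fdps (0.71 ± 0.10) also rose. The glycolysis and hypoxia list had 29 tested genes, with 10 higher and 8 lower. Hif1a, the oxygen-regulated factor, stood at 1243, 1243 and 1404 CPM at 6 h and 699.9, 604 and 567 CPM at 12 h (-1.06 ± 0.08, adjusted p = 3.2e-08). The growth factor gene Vegfa (-1.04 ± 0.09), the first glycolytic enzyme Hk2 (-1.33 ± 0.13), the glucose carrier Slc2a1 (-0.91 ± 0.10) and the oxygen sensor Egln3 (-2.17 ± 0.07) fell. The vasodilator gene Adm rose (0.98 ± 0.23), and so did the enzymes Aldoc (1.14 ± 0.28) and Pfkm (0.99 ± 0.17). The later enzymes Gapdh (0.49 ± 0.07), Pgam1 (0.58 ± 0.08) and Pgk1 (0.43 ± 0.08) rose.

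**Figure D5:**
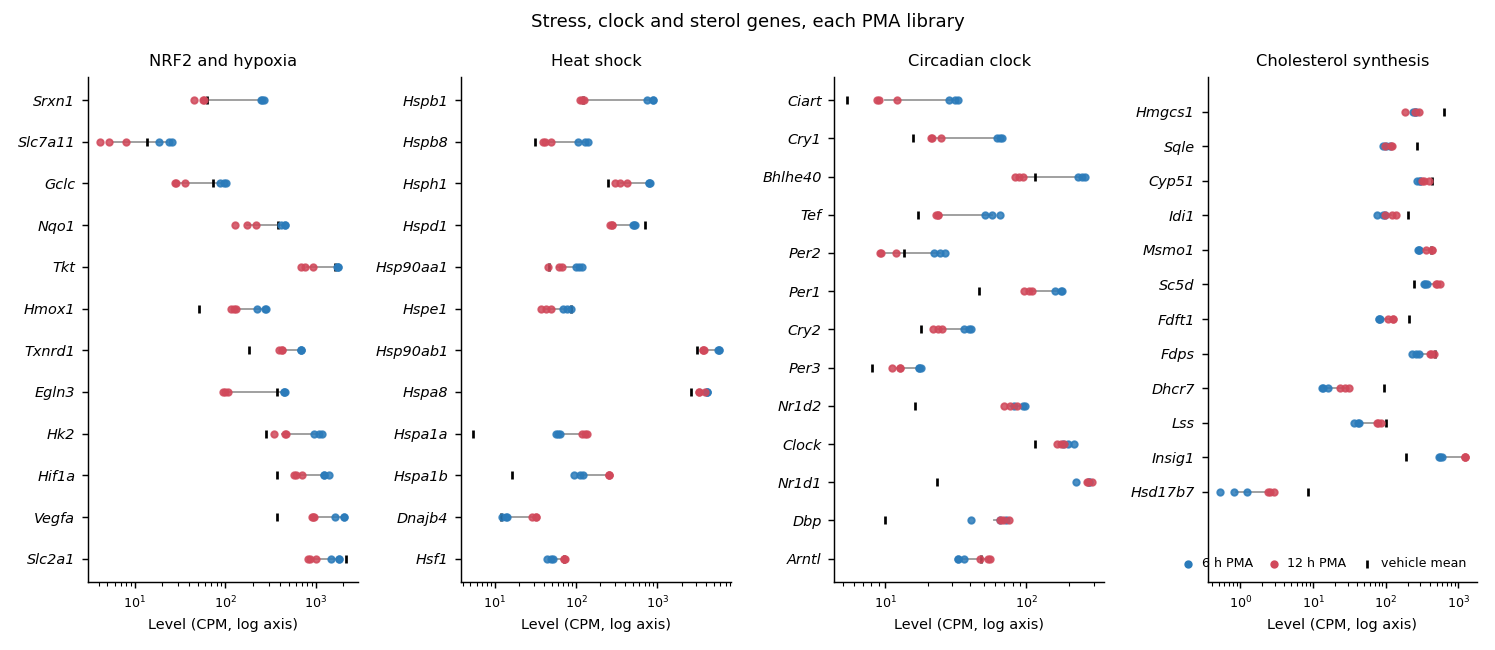
Levels in CPM (log axis) of NRF2 and hypoxia, heat shock, clock and cholesterol genes in each 6 h library (blue) and 12 h library (red), with the vehicle mean as a black tick and a grey line joining the means. Srxn1 fell from 258 to 53.2 CPM and Hspb1 from 851 to 119 CPM, and Insig1 rose from 566 to 1226 CPM.

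Of 53 tested ribosome biogenesis and RNA polymerase I genes, among 56 entries, 32 fell and 2 rose (median -0.43). Ubtf, which organises the ribosomal DNA for transcription, stood at 258, 259 and 216 CPM at 6 h and 84.3, 86.3 and 84.4 CPM at 12 h (-1.52 ± 0.09, adjusted p = 1.2e-09), and the nucleolar proteins Ncl (-0.86 ± 0.07) and Npm1 (-0.83 ± 0.07) fell. Of the 79 cytosolic ribosomal protein genes, all tested, 0 fell and 2 rose by edgeR (median 0.07), and 0 fell at an unadjusted p under 0.05 or by DESeq2, which called 5 higher. The rises were Rps9 (0.40) and Rps27l (0.35), and both lost their call without PMA 6 h replicate 3 or without PMA 12 h replicate 2. The former setting called no gene of the list higher, and the latter called 6 others. Rps9 was also lost without normalization and on leaving out vehicle replicate 2 or replicate 1 of either time, and Rps27l on leaving out 12 h replicate 3. In the respiratory chain list, 25 of 57 tested members rose and 2 fell (median 0.28), or 16 rose without PMA 12 h replicate 3, with Atp5j (0.75 ± 0.11) and Ndufb7 (0.58 ± 0.12) the highest and Cycs, cytochrome c, lower (-0.72 ± 0.08). Of 29 tested lysosome and autophagy genes, 15 rose and 3 fell (median 0.27), including the cathepsins Ctsb (0.58 ± 0.08), Ctsd (0.57 ± 0.11) and Ctsl (0.51 ± 0.09) upward and the autophagy receptor Sqstm1 (-0.46 ± 0.07) downward. Of 22 aminoacyl-tRNA synthetase genes 11 fell and 4 rose (median -0.18), the largest fall being Eprs (-0.64 ± 0.07).

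Among apoptosis regulators, 10 of 23 tested rose and 6 fell. Protective genes went both ways. Bcl2a1, a protective Bcl2 family member, had the largest rise of the list at a low level, 1.87, 1.84 and 0.347 CPM at 6 h and 2.99, 5.16 and 3.73 CPM at 12 h (1.58 ± 0.49, adjusted p = 0.012), a call lost without PMA 12 h replicate 2 (1.34). Mcl1, at 533, 499.8 and 528 CPM at 6 h and 276, 272 and 262 CPM at 12 h (-0.95 ± 0.07, adjusted p = 8.5e-09), and Cflar (-0.93 ± 0.10), both protective, fell. The death receptor Fas (0.98 ± 0.18) and the BH3-only gene Pmaip1 (0.87 ± 0.07) rose, as did Bak1 (0.84 ± 0.09). Bcl2l11, another BH3-only gene, fell (-0.77 ± 0.07). For Mcl1 the 12 h libraries all lay under the 6 h libraries, and for Bcl2a1 they all lay above.

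The remaining lists held members that moved in both directions. Their counts stand beside the 25.3% of all tested genes that rose and the 25.8% that fell. Of 16 tested matrix glycoprotein and integrin genes 7 rose and 4 fell, among them fibronectin, Fn1 (-0.51 ± 0.10), and the hyaluronan receptor Cd44 (-0.48 ± 0.09) downward and Spp1, osteopontin (2.47 ± 0.48), upward. Of 12 prostaglandin genes 3 rose and 3 fell, 25.0% each and close to those shares. The receptor gene Ptger4 was higher (1.57 ± 0.29) and the synthase gene Ptges lower (-0.56 ± 0.09). Of 27 Kruppel-like and differentiation factors 9 rose and 7 fell: Gata3 (2.46 ± 0.30), Klf7 (1.39 ± 0.10) and Sox9 (0.92 ± 0.10) were higher and Ehf (-0.94 ± 0.09) and Tfap2c (-0.81 ± 0.08) lower. Of 32 unfolded protein and Atf4 response genes 6 rose and 7 fell, 18.8% and 21.9% and both below those shares. Among them Ddit4 (-1.31 ± 0.09), Trib3 (-1.34 ± 0.24) and Cebpb (-1.08 ± 0.08) were lower and Chac1 (1.16 ± 0.18) higher. Of 21 chromatin modifiers 9 fell and 1 rose, Setd8 (0.30), or 2 rose on leaving out vehicle replicate 1, vehicle replicate 3 or PMA 6 h replicate 3, with the methyltransferase Suv39h2 (-2.03 ± 0.37) and the demethylase Kdm6b (-0.93 ± 0.08) among the falls. Rises and falls numbered 2 and 4 of 10 simple keratin and mucosal genes, 4 and 4 of 18 fatty acid synthesis genes (22.2% each) and 3 and 5 of 18 amino acid transporters. They numbered 5 and 10 of 38 proteasome subunits, 9 and 7 of 61 mitochondrial ribosomal proteins and 5 and 11 of 37 translation factors. Of these, transporter falls were 3 without PMA 6 h replicate 1 or PMA 12 h replicate 1, proteasome falls were 6 without PMA 6 h replicate 3, and proteasome rises were 3 on leaving out vehicle replicate 2 or either of the first 6 h replicates, 1 and 2. Of the 2 keratin and mucosal rises, Krt80 (0.70) and Krt8, the latter is described with the markers below. Scd1, a fatty acid desaturase (-1.85 ± 0.13), the keratin Krt19 (-1.43 ± 0.26), the transporter Slc6a9 (-1.43 ± 0.20) and the initiation factor Eif4a1 (-0.81 ± 0.08) were among the falls, and the elongase Elovl6 (1.93 ± 0.41) and Mrpl15 (0.91 ± 0.14) among the rises.

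By absolute level, the largest gain was in Actb and the largest loss in Anxa1. Actb, cytoplasmic actin, stood at 3567, 3713 and 3953 CPM at 6 h and 7231, 7292 and 8376 CPM at 12 h (1.03 ± 0.08, adjusted p = 2.1e-08), and its sister Actg1 rose from 5146 to 6861 CPM (0.42 ± 0.08). Pabpc1, which binds poly(A) tails (0.46 ± 0.09), and Glrx, glutaredoxin (0.52 ± 0.08), rose. Anxa1, a phospholipid-binding annexin, stood at 17429, 17421 and 20822 CPM at 6 h and 15442, 14974 and 13339 CPM at 12 h (-0.35 ± 0.09, adjusted p = 0.003). The next losses were the aldo-keto reductase Akr1b8 (-0.86 ± 0.18), Krt17 and the chaperone Hsp90ab1 (-0.64 ± 0.07).

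Most markers of cell types other than basal cells were barely detected at both times. Of those present in the files, 14 of 18 neuronal markers, 7 of 11 sustentacular and gland markers, 8 of 9 respiratory and microvillar markers, 8 of 12 fibroblast and pericyte markers, 8 of 11 immune markers and 9 of 11 endothelial and glial markers stayed under 1 CPM in every group. Summed over the list, neuronal markers ran from 111 to 119 CPM at 6 h and from 186 to 202 CPM at 12 h, nearly all of it Adcy3, an adenylyl cyclase that rose from 108 to 184 CPM (0.77 ± 0.08), while Neurog1, Gap43, Dcx and Cnga2 had no read at either time. Sustentacular and gland markers ran from 1961 to 2019 and from 2193 to 2537 CPM, most of it the simple keratin Krt8 (1871 ± 37.2 CPM at 6 h and 2150.4 ± 163 CPM at 12 h; 0.20 ± 0.08, not passing with a replicate block, with any other scaling, without vehicle replicate 2 or when any PMA library except 12 h replicate 2 was left out, 0.14 without PMA 12 h replicate 3), and Cyp2g1 had no read. Respiratory and microvillar markers summed to 1.45 to 2.42 and 1.56 to 2.45 CPM with Foxj1 at 0 reads, and fibroblast and pericyte markers to 15.9 to 17.2 and 18.6 to 21.1 CPM with Col1a2 at 0 reads. Immune markers summed to 71.7 to 73.5 and 85.6 to 96.8 CPM, most of it Cd68 (0.31 ± 0.09; not passing without PMA 12 h replicate 1 at 0.25), with Ptprc at 0 reads. Endothelial and glial markers summed to 19.6 to 22.7 and 7.69 to 12.1 CPM, most of it the VEGF receptor Flt1, which fell (-1.40 ± 0.22), while Sox10 had no read. Called members of lower level were Ncam1 (1.34), Col5a1 (1.27), Cd14 (1.14), Kdr (1.95) and Sox9 (0.92), all higher, and Gnal (-1.22), lower. Ncam1 did not pass with a replicate block, with DESeq2, with no low-count filter or on leaving out vehicle replicate 2 or any 1 PMA library. Gnal did not pass without replicate 1 of either time or 12 h replicate 3. Col5a1 did not pass with the PMA libraries alone or without PMA 6 h replicate 3 (0.80) or PMA 12 h replicate 1. The part of the expressed markers in other results was not tested.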

How the data were processed

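RNA-seq counts per gene were compared between 3 libraries after 12 h and 3 after 6 h of 50 nM PMA, with the 3 vehicle libraries in the same model. As deposited, the authors' tables hold raw read counts per gene for each library, made with STAR 2.7.5b on rn6, per the submitters' processing notes. The gene annotation behind the counts was not given in the sources used here. The unstranded column was used, so reads of overlapping genes on opposite strands are not parted, and the 4 summary rows were left out. The authors' table of normalized values was not used here. Group and replicate were read from the sample titles.

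In R 4.3.3 with edgeR 4.0.16, filterByExpr (minimum count 10) kept 10128 of 17315 genes, totals were scaled by TMM, and a robust quasi-likelihood model with group as its only term was fitted to all 9 libraries (common dispersion 0.0125). Calls needed a Benjamini-Hochberg adjusted p under 0.05. Steps were tested on simulated data. Members, gene lists (1412 entries in 52 lists, 1154 genes tested) and tests were chosen with earlier results of these data known. Of the entries, 6 matched through a synonym and 91 were not found in the tables.

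Genes were named as follows: 8 chosen for their role (Krt5, Krt14, Tp63, Sox2, Icam1, Hbegf, Fosl1 and Myc); the 12 largest rises and 12 largest falls by log2 fold change among called genes without overlap that reached a mean of 5 CPM; the 6 largest rises and falls in CPM; the called members with the 3 largest rises and 3 largest falls of each list; and, for other cell types, the most abundant and the called members. Other list members are examples chosen after their values were seen. Promoters came from RefSeq (GRCr8). Counting floors are 3 counts over a group and cover counting error only. Alternatives changed the scaling, filter, model (DESeq2 1.42.0), libraries and block. Some genes under the naming rule are not reported here.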

Additional observations from a re-analysis of the deposited data

How the results depend on the processing

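Over 17 alternatives the number of genes called ran from 4623 to 5275 against 5175, and no called gene turned sign. Leaving out each library in turn gave 4623 to 5275 called, 2328 to 2592 higher and 2295 to 2683 lower, with 574 to 650 at least 2-fold higher and 519 to 571 at least 2-fold lower. Without normalization the split was 2316 higher and 2857 lower, with a median shift of -0.04. DESeq2 called 5152 genes and the PMA libraries alone 5124. With a replicate block the count was 4955; the labels give no shared origin to a number, same-numbered 6 h and 12 h libraries correlated at -0.04, -0.06 and -0.11 in their deviations from the group means, and no library correlated best with its own number, so the numbers were not taken as a pairing. Of 276 called genes under the naming rule, 30 lost their call in at least 1 alternative; the cause was not tested. Proteasome rises (5) were 3 with upper-quartile scaling. For genes that had not passed, the sign was checked only in those picked for naming or description, and not in all tested genes. Among these, the genes that turned sign were Cldn4 and S100a13. Cldn4 ran from -0.22 to 8.0e-04 as each library was left out, and S100a13 from -0.48 to 0.050. At this depth a gene under 1 CPM rests on few reads.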

Other observations

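Genes of the actin cytoskeleton were looked at after the rise of Actb was seen, so the counts are a description without a test. Of 56 tested actin and actin-binding genes, among 64 listed, 40 rose (71.4%, against 25.3% of all tested genes) and 1 fell, the tropomyosin Tpm3 (-0.41 ± 0.07), with a median log2 fold change of 0.55. The non-muscle myosin Myh10 stood at 96.02, 94.6 and 93.1 CPM at 6 h and 364, 416 and 368 CPM at 12 h (2.02 ± 0.10). The actin-linked genes Cald1 (2.35 ± 0.12), Lpp (2.06 ± 0.13), Pdlim5 (1.88 ± 0.09), Csrp1 (1.41 ± 0.09), Zyx (1.29 ± 0.08), Tpm4 (1.24 ± 0.07) and Actn1 (0.83 ± 0.07) were higher at 12 h.

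Some nuclear genes went the other way, again chosen after their values were seen. Of 17 nucleoporin genes 12 fell (70.6%, against 25.8% of all tested genes) and 1 rose (median -0.56). Of 154 genes whose symbol is Zfp or Znf with a number, 65 fell (42.2%) and 21 rose (median -0.27), and of 49 splicing factor genes 23 fell (46.9%) and 5 rose (median -0.24). Many of these are of modest level, and no reason for the direction was tested.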
